A study of Homo sapiens with 5 samples.

Results

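The anaphase-promoting complex (APC/C), a ubiquitin ligase, was followed through 10 of its genes and partners among the 26485 genes of the count table, each found by its symbol. They were the activators CDC20 and FZR1, the ubiquitin-conjugating (E2) enzymes UBE2C and UBE2S, the inhibitor FBXO5, securin (PTTG1) and separase (ESPL1), and the core subunits ANAPC1, CDC27 and CDC23. The question put to them was how the regulators, most of which follow the cell cycle, compared with the core of the complex when cells received doxorubicin. Poly-A RNA was sequenced from RPE1, a line of human retinal pigment epithelial cells immortalised with telomerase. The 5 libraries came from cells kept for 18 h with the solvent DMSO (2 libraries), with 0.2 µM doxorubicin (2 libraries) or with 0.34 µM doxorubicin (1 library, so with no replicate of its own). Doxorubicin intercalates into DNA and traps topoisomerase II. All libraries were of 1 line, and the RNA was bulk RNA. Other shares of cells in each stage of the cell cycle and another amount of a given mRNA per cell therefore cannot be told apart here. Values scaled to library size do not show the total amount of RNA per cell.

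The APC/C marks mitotic proteins for destruction by the proteasome. CDC20 activates it at the metaphase to anaphase transition, when securin and cyclin B are degraded, separase is freed and the cohesin rings that hold sister chromatids are cut. FZR1 takes over at mitotic exit and holds the complex active through G1, until FBXO5 blocks it for S phase and G2.

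Promoters of genes that peak in G2 and mitosis often hold a cell cycle homology region (CHR) near a CCAAT box, and these motifs were looked for in windows from 250 bases before to 50 bases after each start site. The letters searched, on both strands, were TTTGAA or TTCGAA for the CHR, CCAAT for the CCAAT box, and TTTGGCGC, TTTCCCGC, TTTGCCGC or TTTCGCGC for an E2F site. Of the members, 9 of 10 had a window in the RefSeq table (GRCh38.p14), and UBE2C had none. The 120 bases before the start site are shown 5′ to 3′ for 3 genes of the mitotic exit machinery and, for contrast, a core subunit, with the motif letters in capitals on the strand of the gene (ATTGG is CCAAT read on the other strand).
CDC20 (chr1:43358861-43358980, plus strand): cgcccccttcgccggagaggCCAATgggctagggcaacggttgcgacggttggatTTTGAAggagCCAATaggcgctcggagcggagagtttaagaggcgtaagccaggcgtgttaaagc
ESPL1 (chr12:53268179-53268298, plus strand): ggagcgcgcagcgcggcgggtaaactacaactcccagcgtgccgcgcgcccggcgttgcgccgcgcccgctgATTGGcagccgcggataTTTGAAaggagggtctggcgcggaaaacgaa
PTTG1 (chr5:160421735-160421854, plus strand): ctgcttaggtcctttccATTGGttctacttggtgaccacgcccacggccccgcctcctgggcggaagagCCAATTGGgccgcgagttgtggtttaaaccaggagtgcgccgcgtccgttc
CDC23 (chr5:138213324-138213443, minus strand): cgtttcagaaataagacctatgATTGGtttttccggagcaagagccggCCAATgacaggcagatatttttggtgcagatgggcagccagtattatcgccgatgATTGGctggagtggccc
CDC20 held a CHR at -65 between CCAAT boxes at -100 and -55, counted from the start site, and another CHR on the opposite strand at -178. ESPL1 held a CCAAT box at -48 and a CHR at -31. PTTG1 held CCAAT boxes at -103, -51 and -48, of which the last pair overlap, and neither CHR nor E2F letters. CDC23 held CCAAT boxes at -98, -72 and -17 and an E2F match at -187, outside the stretch shown, and no CHR letters.

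In the windows of the other members, FBXO5 had 4 CCAAT matches and a CHR at -40 before one of its start sites and none before the other. FZR1 had only a CHR, at -226, ANAPC1 only a CHR, at 37 bases after the start, and UBE2S and CDC27 only a CCAAT box each, at -191 and -226. CHR letters stood in 16.4% of all 35116 windows of this length, CCAAT in 34.6%, an E2F match in 3.31%, and a CHR with a CCAAT box in 6.38%. In the 446 windows of genes called lower with doxorubicin (by the test given with the members' values) these shares were 32.5%, 52.2%, 14.6% and 21.1%. A match is a run of letters and not a tested site, and no test was made of these shares.

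Total counts were between 23773061 and 36725345 per library, and the libraries of one condition were not copies of each other. The markers of pigment epithelium were mixed. RPE65, RLBP1 and TYR were at no more than 0.305 CPM (counts scaled to library size) in any library. BEST1, PMEL and SERPINF1 were low, the highest value being 3.91 CPM for BEST1 at 0.34 µM. OTX2, at between 23.5 and 29.4 CPM, MITF and the keratins KRT8 and KRT18 were expressed. The 10 pigment epithelium markers summed to between 638 and 784 CPM with DMSO and between 1051 and 1249 CPM with doxorubicin. BEST1, PMEL, KRT8 and KRT18 were higher in every doxorubicin library than in both DMSO libraries. The markers of blood and endothelial cells, PTPRC, CD3E, PECAM1 and VWF, summed to between 0.496 and 0.705 CPM with DMSO and between 1.82 and 3.00 CPM with doxorubicin, with CD3E at 0 in all libraries. The part of these differences in the results was not tested.

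Doxorubicin lowered the mRNA of the mitotic activator, both E2 enzymes, the S phase inhibitor and separase, whereas the call failed for securin, for FZR1 and for the core subunits. CDC20 was left at 4.79% of its DMSO mean, UBE2C at 8.62%, ESPL1 at 8.10%, FBXO5 at 11.2% and UBE2S at 20.3%. Of the members not called, PTTG1 was at 30.3%, CDC27 at 53.9%, ANAPC1 at 58.8%, CDC23 at 73.4% and FZR1 at 82.3%, so a failed call does not mean an unchanged level. In edgeR's quasi-likelihood test of the 3 doxorubicin libraries against the 2 DMSO libraries, 5 of 10 members were called lower at a Benjamini-Hochberg adjusted p of 0.01 and 0 higher. Among the 14187 genes tested, 2.73% were called lower and 1.29% higher. The median log2 fold change of the members was -2.01, against 0.013 for all genes tested. In 9 of 10 members every doxorubicin library lay under both DMSO libraries, which was so for 23.4% of all genes tested.

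CDC20, which presents cyclin B and securin to the complex, stood at 115 and 200.7 CPM in the DMSO libraries. It was at 7.54 and 8.56 CPM in the libraries at 0.2 µM and at 6.56 CPM at 0.34 µM. The groups lay far apart although the DMSO libraries differed 1.75-fold from each other. The log2 fold change was -4.39 (SE 0.27, 95% interval -5.04 to -3.74, edgeR adjusted p = 0.000694), the largest fall among the members. With each library left out in turn it stayed between -4.74 and -3.95, and CDC20 was called each time, with an adjusted p of at most 0.00823.

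FZR1 encodes the activator that replaces CDC20 at mitotic exit. Its level was 41.4 and 59.1 CPM with DMSO, 45.6 and 34.1 CPM at 0.2 µM and 44.4 CPM at 0.34 µM. The groups overlapped, and the 0.34 µM library lay between the DMSO libraries. The log2 fold change of -0.28 (SE 0.22) had an interval from -0.80 to 0.24, and a change within it was not detectable with these libraries (edgeR adjusted p = 0.433).

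UBE2C starts ubiquitin chains on substrates of the complex. It was at 69.8 and 87.7 CPM with DMSO, at 6.96 and 8.44 CPM at 0.2 µM and at 4.96 CPM at 0.34 µM. Its log2 fold change was -3.54 (SE 0.25, edgeR adjusted p = 0.000891). UBE2S, which lengthens those chains, was at 156 and 260 CPM with DMSO and at 42.8, 44.9 and 39.1 CPM with doxorubicin, the last at 0.34 µM. All doxorubicin libraries were low for both enzymes, but UBE2S kept a larger share of its DMSO level (log2 fold change -2.30, SE 0.23, edgeR adjusted p = 0.00211). The call of UBE2C was lost without DMSO replicate 2 (adjusted p = 0.0119), and that of UBE2S without replicate 1 or 2 at 0.2 µM or without the 0.34 µM library (adjusted p = 0.0109, 0.0153 and 0.0104).

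FBXO5, the EMI1 inhibitor that keeps FZR1-bound complex silent in S phase and G2, stood at 31.3 and 40.3 CPM with DMSO. With doxorubicin it was at 3.48, 5.36 and 3.22 CPM, and no doxorubicin library came near the DMSO libraries. The log2 fold change was -3.16 (SE 0.27, 95% interval -3.81 to -2.51, edgeR adjusted p = 0.0015). Without DMSO replicate 2 the adjusted p was 0.0142.

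Separase was called lower, and its inhibitor securin was not. ESPL1, the protease that cuts cohesin, was at 31.6 and 47.3 CPM with DMSO and at 3.21, 4.03 and 2.34 CPM with doxorubicin. Its log2 fold change was -3.63 (SE 0.29, edgeR adjusted p = 0.00125), and it was not called without DMSO replicate 2 (adjusted p = 0.0129). PTTG1, which holds separase inactive until it is degraded, was at 103 and 105 CPM with DMSO, at 21.3 and 47.1 CPM at 0.2 µM and at 26.1 CPM at 0.34 µM. The DMSO libraries were close together, whereas the doxorubicin libraries differed 2.21-fold, replicate 2 at 0.2 µM being the highest. Its log2 fold change was -1.72 (SE 0.32, 95% interval -2.49 to -0.95), and the adjusted p of 0.0184 in edgeR missed the threshold. Without replicate 2 at 0.2 µM the change was -2.13 and PTTG1 was called (adjusted p = 0.0067), and DESeq2 called it with all libraries (adjusted p = 1.04e-05).

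**Figure D1:**
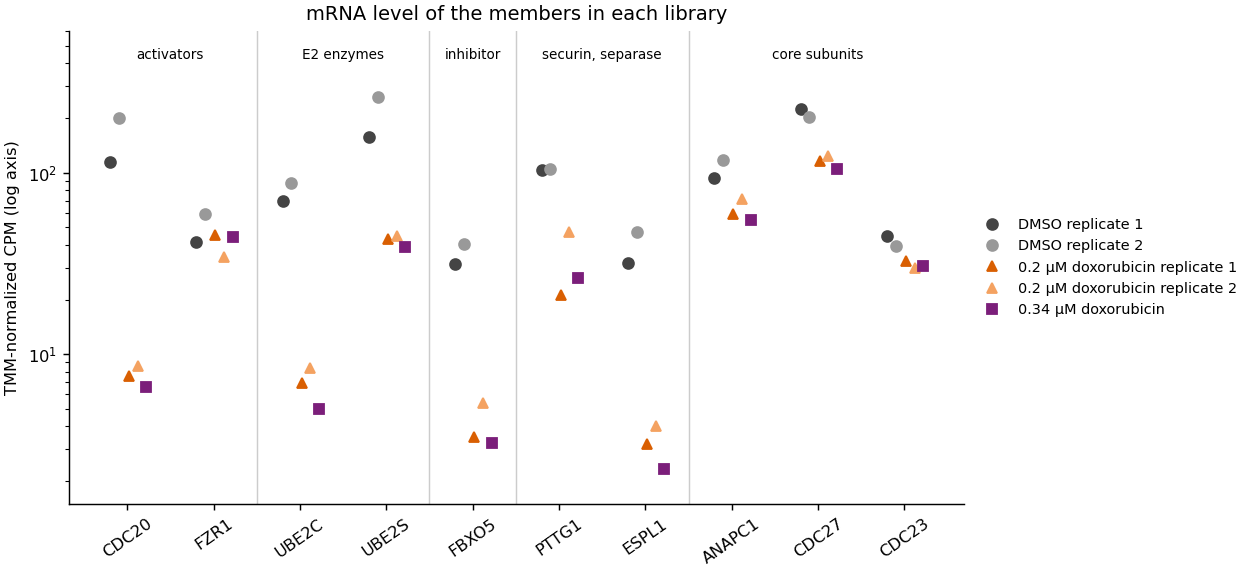
TMM-normalized CPM (vertical log axis) of the 10 members in each of the 5 libraries, grouped by role; circles are DMSO, triangles 0.2 µM and squares 0.34 µM doxorubicin, 1 point per library. The doxorubicin points of CDC20, UBE2C, FBXO5 and ESPL1 lie between 4.15% (CDC20) and 14.98% (FBXO5) of the DMSO mean of their gene, those of the 3 core subunits between 49.2% (CDC27) and 76.8% (CDC23), and only those of FZR1 overlap with DMSO.

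The 3 core subunits were lower in every doxorubicin library than in both DMSO libraries, by far smaller amounts than the called regulators, and none was called by edgeR. CDC27, which binds the tails of the activators, was at 223.5 and 203 CPM with DMSO and at 116, 124 and 105 CPM with doxorubicin. ANAPC1, the large scaffold, was at 93.2 and 118 CPM with DMSO and at 59.5, 71.9 and 54.7 CPM with doxorubicin. CDC23, a scaffold subunit built of repeats like CDC27, was at 44.9 and 39.6 CPM with DMSO and at 32.4, 30.0 and 30.6 CPM with doxorubicin. Such a separation of the groups was also found in the 23.4% of all genes tested given above, and in 4 of all 14 subunits of the complex, these 3 included.

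On the log2 scale the changes were -0.89 (SE 0.15) for CDC27, -0.77 (SE 0.18) for ANAPC1 and -0.45 (SE 0.15) for CDC23. Their 95% intervals ran from -1.24 to -0.55, from -1.20 to -0.34 and from -0.80 to -0.09. The adjusted p-values in edgeR were 0.0116, 0.038 and 0.0946. DESeq2 called CDC27 (adjusted p = 8.47e-07) and ANAPC1 (adjusted p = 0.00317) and did not call CDC23 (adjusted p = 0.0375), so that with PTTG1 it called 8 of the 10 members lower, against 8.02% of all genes tested.

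Over the 6 regulators CDC20, UBE2C, UBE2S, FBXO5, PTTG1 and ESPL1, the mean log2 CPM minus that of the 3 core subunits was -0.46 and 0.005 in the DMSO libraries. It was -2.74 and -2.39 at 0.2 µM and -2.80 at 0.34 µM. The difference thus fell by 2.41 on the log2 scale, and the groups did not overlap. With all 14 subunits of the complex as the core it fell by 3.04. As the members were chosen with results of these data known, no test was made of it.

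Per kilobase of canonical transcript, securin was the most abundant member in both groups. The order rests on these lengths, for example 715 bases for PTTG1 and 2559 for UBE2S, and which transcripts the cells used was not tested. In DMSO the mean levels were 145 CPM per kb for PTTG1, 101 for UBE2C, 95.7 for CDC20, 81.3 for UBE2S, 36.6 for CDC27, 17.4 for FBXO5, 13.6 for ANAPC1, 13.5 for CDC23, 9.70 for FZR1 and 5.96 for ESPL1. The 2 DMSO libraries of UBE2C, CDC20 and UBE2S spanned overlapping ranges, as did those of ANAPC1 and CDC23, so these neighbours in the order were not separated. With doxorubicin the order began with PTTG1 at 44.1 CPM per kb, CDC27 at 19.7 and UBE2S at 16.5. CDC23 at 9.89, UBE2C at 8.73, FZR1 at 7.99 and ANAPC1 at 7.99 followed, and the range of UBE2C overlapped with those of the other three while CDC23 lay above FZR1 and ANAPC1 in every library. In the last places, CDC20 at 4.58, FBXO5 at 1.96 and ESPL1 at 0.483 followed. CDC20 per kilobase was thus above every core subunit named here with DMSO and below all 3 of them with doxorubicin.

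Ratios of counts within a library need no scaling between libraries, and 4 pairs of partners were compared in this way, as descriptions with no test. For each read of FZR1 there were 2.78 and 3.40 reads of CDC20 in the DMSO libraries, and 0.166, 0.251 and 0.148 with doxorubicin, the last at 0.34 µM. Taken from the mean log2 ratio of each group, as for all 4 pairs, the ratio of the 2 activators changed 16.8-fold towards FZR1. FBXO5 counts were 0.755 and 0.683 of those of FZR1 with DMSO and 0.0764, 0.157 and 0.0725 with doxorubicin, a 7.52-fold lower ratio of the inhibitor to the activator it binds.

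Securin counts were 3.25 and 2.22 times those of separase with DMSO and 6.64, 11.7 and 11.2 times with doxorubicin, so this ratio was 3.54-fold higher. UBE2C counts were 0.447 and 0.337 of those of UBE2S with DMSO and 0.162, 0.188 and 0.127 with doxorubicin, a 2.47-fold lower ratio of the chain-starting to the chain-lengthening enzyme. In none of the 4 pairs did the groups overlap. For single genes tested, the doxorubicin libraries all lay under both DMSO libraries in 23.4% and all above them in 24.3%. No such share was computed for ratios.

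**Figure D2:**
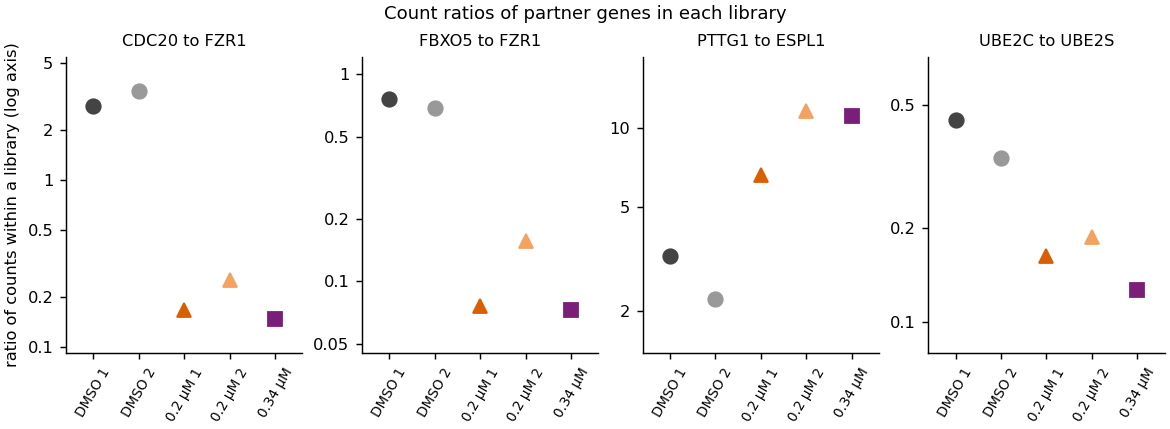
Ratio of the counts of 2 partner genes within each of the 5 libraries (vertical log axis, a scale of its own in each panel; 1 point per library, circles DMSO, triangles 0.2 µM and square 0.34 µM doxorubicin). CDC20 to FZR1 goes from 2.78 and 3.40 with DMSO to between 0.148 and 0.251 with doxorubicin, and PTTG1 to ESPL1 is the ratio of the 4 that is higher with doxorubicin.

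The rest of the complex was read from a list of its 14 subunits, all of which were tested. None was called in either direction by edgeR, 8 had a log2 fold change below 0 and 6 above, and the median was -0.04, close to that of all genes tested. At an unadjusted p under 0.05 there were 5 of 14 subunits, against 30.8% of all genes tested, and DESeq2 called CDC27 and ANAPC1 lower, 2 of 14, against 8.02% of all genes tested. The most negative value was that of CDC27, and the 3 core subunits among the members had the 3 lowest values of the 14. At the other end, ANAPC2, the cullin subunit, was at 22.4 and 32.5 CPM with DMSO and at 43.5, 39.5 and 43.0 CPM with doxorubicin (log2 fold change 0.62, SE 0.20, edgeR adjusted p = 0.0894). ANAPC16 had a log2 fold change of 0.50 (edgeR adjusted p = 0.0708), and it was 1 of 3 subunits higher in all doxorubicin libraries than in both DMSO libraries, while 4 were lower. Of all genes tested, 24.3% were higher and 23.4% lower in this sense, so these counts of 14 are near the background.

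Among activators and E2 enzymes, 3 of 5 were called lower, all of them members, against 2.73% of all genes tested. UBE2D1, an E2 enzyme that can also start chains for the complex and serves many other ligases, had a log2 fold change of 0.13 (SE 0.16, edgeR adjusted p = 0.609). Of 5 inhibitors, 3 were called lower, against the same 2.73%, namely the member FBXO5 and the mitotic checkpoint proteins BUB1B and MAD2L1. BUB1B was at 122 and 124 CPM with DMSO and at 8.43, 9.52 and 5.54 CPM with doxorubicin (log2 fold change -3.98, SE 0.25, edgeR adjusted p = 0.000694), and it was called with every library left out. MAD2L1 had a log2 fold change of -2.65 (edgeR adjusted p = 0.00669), a call lost whichever of the 5 libraries was left out (adjusted p up to 0.0356). BUB3, their partner in the checkpoint complex, had a value of -0.38 (adjusted p = 0.334), and FBXO43, a relative of FBXO5 known from oocytes, had -3.02 (adjusted p = 0.0317) from 79 and 127 counts with DMSO and 12, 22 and 5 with doxorubicin.

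TRIP13, the ATPase that takes the checkpoint complex apart, was called lower (log2 fold change -2.41, SE 0.28, edgeR adjusted p = 0.00355). It was not called without DMSO replicate 2 or without any 1 of the doxorubicin libraries (adjusted p up to 0.0213). Its adaptor MAD2L1BP had a value of 0.12, which turned to -0.09 without DMSO replicate 1. Of the deubiquitinases that oppose the complex, USP37 had -1.03 (adjusted p = 0.0337) and OTUD7B -0.08, neither called, and USP44 was too low to be tested.

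On the separase axis, 3 of 4 tested genes were called lower, against 2.73% of all genes tested. Beside ESPL1 these were SGO1 (listed as SGOL1), the guardian of centromeric cohesin, and CDCA5 (sororin), which locks cohesin on replicated chromatids. SGOL1 was at 21.1 and 20.9 CPM with DMSO and at 2.05, 3.04 and 1.76 CPM with doxorubicin (log2 fold change -3.21, SE 0.28, edgeR adjusted p = 0.00149), and its call was lost without either DMSO library (adjusted p up to 0.0141). CDCA5 was at 25.7 and 55.0 CPM with DMSO and at 6.57, 7.86 and 3.995 CPM with doxorubicin (log2 fold change -2.72, SE 0.40, edgeR adjusted p = 0.00811). The DMSO libraries of CDCA5 differed 2.14-fold, and its call was lost whichever library was left out (adjusted p up to 0.033).

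**Figure D3:**
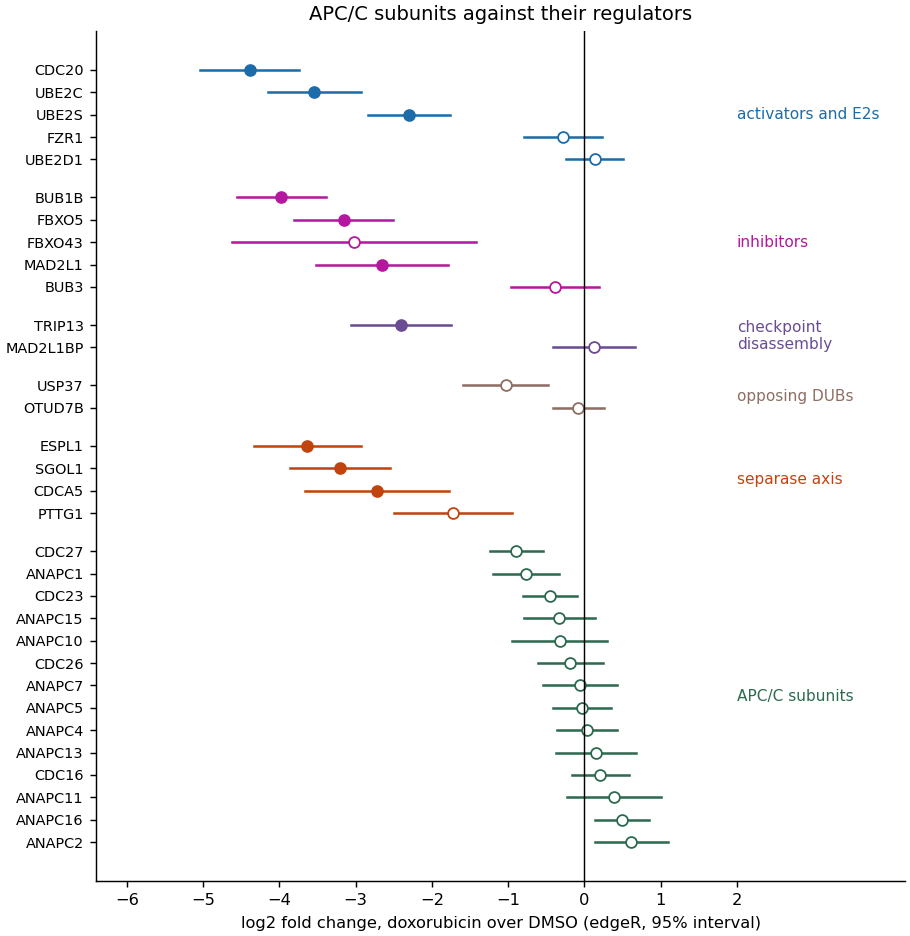
Log2 fold change of doxorubicin over DMSO (horizontal axis; points are edgeR estimates from 3 against 2 libraries, bars 95% intervals) for the regulators and subunits tested, coloured by role; filled points passed an adjusted p of 0.01. Filled points lie between -4.39 (CDC20) and -2.30 (UBE2S), and all 14 subunits, between -0.89 and 0.62, are open.

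The complex acts on proteins, and the mRNAs of many of its known targets are themselves cyclical. Of 20 such targets, all were tested, 20 had a log2 fold change below 0, and 17 were called lower by edgeR, against 2.73% of all genes tested, with a median of -3.03. All 20 were lower in every doxorubicin library than in both DMSO libraries, against 23.4% of all genes tested. PLK1, the mitotic kinase, was lowest at -5.53 (SE 0.16, edgeR adjusted p = 0.000136), and its counts were 5447 and 4845 with DMSO and 119, 107 and 139 with doxorubicin. NEK2 had -4.69, CCNA2 (cyclin A) -3.95, CCNB1 (cyclin B) -3.87 and AURKA (Aurora kinase A) -3.66.

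The targets that did not pass were TK1, which makes thymidine monophosphate (-0.79, adjusted p = 0.0722), SKP2, a subunit of another ligase (-1.23, adjusted p = 0.0202), and CDC25A, a phosphatase that activates cyclin-dependent kinases (-2.89, adjusted p = 0.0116). CDC25A was at 8.77 and 24.4 CPM in the 2 DMSO libraries, and it was called without DMSO replicate 1. Without DMSO replicate 2, 5 of the 20 targets were called, as were 49 genes in all, and among the members named above CDC20 and UBE2S were the 2 still called.

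**Figure D4:**
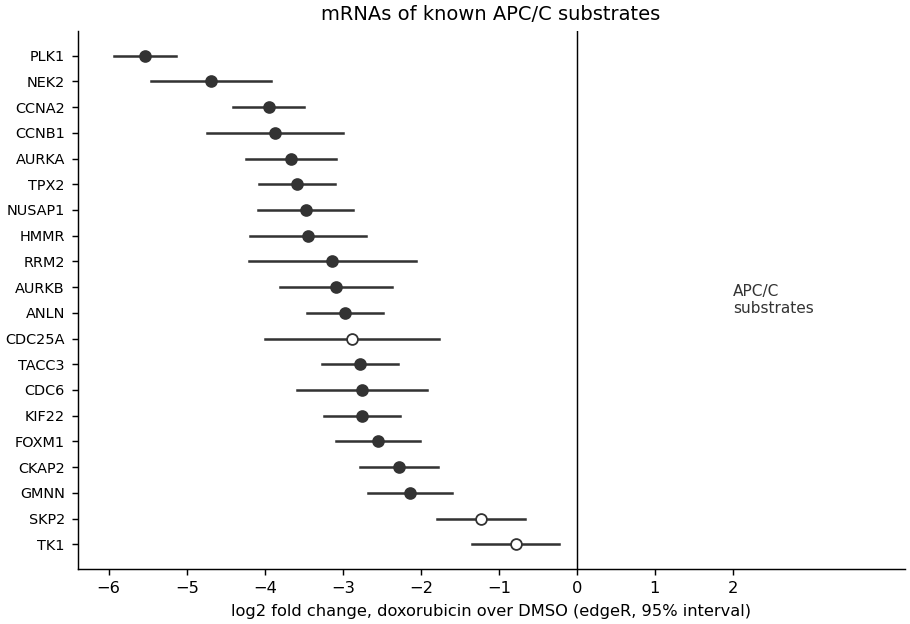
Log2 fold change of doxorubicin over DMSO (horizontal axis; points are edgeR estimates from 3 against 2 libraries, bars 95% intervals) for the mRNAs of 20 known targets of the complex; filled points passed an adjusted p of 0.01. The values run from -5.53 for PLK1 to -0.79 for TK1, and the 3 open points are TK1, SKP2 and CDC25A.

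Between the doses, no member differed at an unadjusted p under 0.05. Of 14745 genes tested with 3 conditions, 0 were called (0%) by edgeR or by DESeq2, and 27 and 26 had an unadjusted p under 0.05. These are far fewer genes than a well-calibrated test would give with no difference between the doses, so the test was very cautious. The lone 0.34 µM library took its spread from the other conditions in this fit. The lack of calls therefore does not show that the doses acted alike. UBE2C was 0.63 lower on the log2 scale at 0.34 µM than at 0.2 µM (95% interval -1.39 to 0.12), ESPL1 0.63 lower (-1.56 to 0.31), FBXO5 0.45 lower (-1.39 to 0.49) and CDC20 0.29 lower (-1.19 to 0.61). FZR1 was 0.16 higher (-0.64 to 0.95). These intervals leave room for differences of more than 1.5-fold in either direction for CDC20 and FZR1.

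Against the same 2 DMSO libraries, which both doses share, CDC20 changed by -4.30 at 0.2 µM and by -4.59 at 0.34 µM on the log2 scale. UBE2C changed by -3.36 and -3.99, UBE2S by -2.25 and -2.42, FBXO5 by -3.02 and -3.47 and ESPL1 by -3.45 and -4.07. PTTG1 had -1.61 and -1.996, CDC27 -0.83 and -1.03, ANAPC1 -0.69 and -0.95, CDC23 -0.44 and -0.47 and FZR1 -0.34 and -0.18. In that fit FBXO5 and UBE2S were called at 0.2 µM (edgeR adjusted p = 0.00508 and 0.0091) and not at 0.34 µM (adjusted p = 0.0129 and 0.0248), and the test between the doses did not separate them.

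The genes whose pattern over the 5 libraries was most like that of CDC20 were SAPCD2, GTSE1, CDCA8, BUB1 and BIRC5. Their distances in centred log2 CPM (0 for the same pattern) were 0.334, 0.432, 0.440, 0.494 and 0.509. BUB1 is a checkpoint kinase, and CDCA8 and BIRC5 belong to the chromosomal passenger complex. Nearest to FBXO5 were DBF4, the activating subunit of the CDC7 kinase (0.177), SGOL1 (0.283), FAM72D (0.364), RACGAP1 (0.385) and CDCA2 (0.392). The points share 5 libraries of 2 treatments, so the distances describe these libraries and carry no test.

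On GRCh38.p14, CDC20 spans positions 43358981 to 43363203 of chromosome 1, ESPL1 53268299 to 53293638 of chromosome 12, and PTTG1 160421855 to 160428744 of chromosome 5. These genes, UBE2C and FBXO5 overlap no other annotated gene. UBE2S shares 3598 bases with RPL28, a ribosomal protein gene with 23016 and 11688 counts with DMSO and 12549, 14036 and 17639 with doxorubicin (log2 fold change -0.37, edgeR adjusted p = 0.427, and 0.17 without DMSO replicate 1). CDC23 shares 74 bases with KIF20A, a mitotic kinesin gene with 7458 and 5667 counts with DMSO and 120, 137 and 226 with doxorubicin (log2 fold change -5.52). Whether counting used the strand is not stated in any source used here, and the part of these neighbours in the counts of UBE2S and CDC23 was not tested. RefSeq lists 11 pseudogenes named after CDC27, 6 after ANAPC1, 5 after UBE2C, 3 after PTTG1, 2 after UBE2S and 1 after CDC20, and how reads shared with them were counted is not given either, which leaves the levels of these genes less certain.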

How the data were processed

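The authors used STAR for alignment to hg38 and featureCounts of Rsubread for counting, with the iGenomes annotation, and the deposited values are raw counts. No source used here gives versions, the strand setting or how reads with several positions were treated. Doses follow the treatment field of the labels, while the protocol text gives 200 and 340 µM. The authors call the libraries biological replicates. A second deposited table, of the authors' own DESeq2 comparison (mean normalized counts, log2 fold changes and p-values), was not used.

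Counts were tested in R 4.3.3 with edgeR 4.0.16 (quasi-likelihood test, TMM, default filter with at least 10 counts and a total of 15, Benjamini-Hochberg over 14187 genes, threshold 0.01), pooling both doses as the study did. Doses were compared in a fit of 3 conditions. DESeq2 1.42.0, limma 3.58.1, other normalizations, filters and thresholds, thinned counts and each library left out were alternatives. So was the contrast of 0.2 µM against DMSO in the fit of 3 conditions. Standard errors are the absolute log2 fold change over the square root of F. CPM are TMM-normalized, log2 CPM had a prior count of 2, and lengths are those of GENCODE canonical transcripts. Members and lists were chosen from general knowledge with earlier results of these data known. Named genes are the members, the ends of each list by fold change, list genes past the threshold, overlapping genes and copies, and the 5 genes nearest to CDC20 and to FBXO5, and others were chosen after their values were seen.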

Additional observations from a re-analysis of the deposited data

How the results depend on the processing

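Of the 10 members, 5 were called by edgeR with other normalizations, thinned counts or a minimum count of 50, and 5 by limma voom. The contrast of 0.2 µM against DMSO in the fit of 3 conditions, which kept the 0.34 µM library, also called 5. With the 0.34 µM library left out, 4 were called. Without a filter 7 were called, with DESeq2 8 and at a threshold of 0.05 8, while the calls among all genes rose from 571 to 1020, 2073 and 1927. With each library left out, 2 to 5 members were called, the 2 without DMSO replicate 2, where 49 genes were called in all. No member's log2 fold change turned its sign under any alternative. Of the 14 subunits, 2 were called with DESeq2, 1 without a filter and 2 at a threshold of 0.05. With each library left out, 5 to 15 of the 20 targets were called. The change in the difference between regulators and core was -2.01 with FZR1 among the regulators, -3.04 with all subunits as the core and -2.90 with medians. With each library left out it lay between -2.65 and -2.18. The sign depended on the library left out for ANAPC4 (-0.057 to 0.11), ANAPC5 (-0.20 to 0.13), ANAPC7 (-0.26 to 0.14), ANAPC13 (-0.046 to 0.28), MAD2L1BP (-0.089 to 0.34) and RPL28 (-0.78 to 0.17). The cause of these changes was not tested, and fits without a library have fewer samples. No paired analysis was possible because the groups share only 1 replicate number in the labels, which number the second library at DMSO and at 0.2 µM and no other.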

Other observations

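The DMSO libraries differed from each other in genes of the complex and its targets, in both directions. CDC25A was 2.78-fold, CDCA5 2.14-fold, CCNB1 1.95-fold, CDC6 1.93-fold and CDC20 1.75-fold as high in DMSO replicate 2 as in replicate 1. PTTG1 was at a ratio of 1.02, BUB1B of 1.02, PLK1 of 0.913, NUSAP1 of 0.806 and ANLN of 0.790 between the same libraries. With doxorubicin the highest library was 6.64-fold the lowest for FBXO43, from only 12, 22 and 5 counts. The highest was 2.97-fold the lowest for RRM2, 2.41-fold for MAD2L1 and 2.21-fold for PTTG1. Replicate 2 at 0.2 µM was the highest for each of these genes.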
